A study of Mus musculus with 12 samples.

Results

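The interferon-inducible GTPases described here are 6 of the 23412 genes counted: the guanylate-binding proteins Gbp1, Gbp2 and Gbp3 and the immunity-related GTPases Irgm1, Igtp and Iigp1, taken by their symbols in the count tables. Poly-A RNA of v6.5 mouse embryonic stem cells (mESCs), grown with serum and LIF on gelatin, was sequenced to compare cells with and without the nucleosome-binding proteins HMGN1 and HMGN2. There were 4 groups of 3 libraries each: WT, Hmgn1-/- with a homozygous deletion of 1 base in Hmgn1, Hmgn2-/- with a homozygous insertion of 1 base in Hmgn2, and Hmgn1-/-Hmgn2-/-, in which Hmgn1 was edited in the Hmgn2-/- line. Each knockout line is 1 clone, so a difference between a knockout and WT mESCs cannot be told apart from a difference between clones.

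Interferons bind receptors at the cell surface, JAK kinases at these receptors are activated, and transcription factors, the interferon regulatory factors among them, then switch on target genes. The guanylate-binding proteins and the immunity-related GTPases are among the most strongly induced targets of interferon gamma, and they act on the membranes around bacteria and parasites inside cells. Embryonic stem cells are known to respond weakly to interferons.

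Library totals ran from 17337908 to 31448468 counts. The WT libraries held 31448468, 17614490 and 28524108 counts, the Hmgn1-/- libraries 25953244, 21059862 and 21993042. The Hmgn2-/- libraries held 25908890, 26486535 and 17337908 counts, and the Hmgn1-/-Hmgn2-/- libraries 31005479, 22151507 and 26410485. WT replicate 2 and Hmgn2-/- replicate 3 were thus the shallowest. Hmgn2-/- replicate 3 also stood apart from its group, at 30.5 on the second principal component of all genes against -12.1 and 0.70 for the other 2 libraries. Without it, 4 members were past the threshold described below in Hmgn2-/- mESCs, the same number as with it. The labels give no batch or date.

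The edited genes came first. Hmgn1 had 21181, 10607 and 17684 counts in WT libraries, 3600, 2916 and 3085 in Hmgn1-/-, 14192, 14690 and 10760 in Hmgn2-/-, and 673, 441 and 563 in Hmgn1-/-Hmgn2-/-. Hmgn2 had 4374, 2167 and 3444 counts in WT libraries, 2746, 2369 and 2382 in Hmgn1-/-, 1322, 1441 and 904 in Hmgn2-/-, and 1683, 1118 and 1428 in Hmgn1-/-Hmgn2-/-. Each edited transcript was lower in every library of the lines that carry its edit than in every WT library, and none was at 0. Against WT, Hmgn1 fell by 2.16 on the log2 scale in Hmgn1-/- and fell by 4.89 in Hmgn1-/-Hmgn2-/- mESCs, and Hmgn2 fell by 1.24 in Hmgn2-/- and fell by 1.25 in Hmgn1-/-Hmgn2-/- mESCs. The gene not edited had a log2 fold change of -0.21 (Hmgn2 in Hmgn1-/-, adjusted p = 0.0275) and -0.099 (Hmgn1 in Hmgn2-/-, adjusted p = 0.493). The label of the cells was checked against 10 pluripotent stem cell markers, of which Pou5f1 was the most abundant. Their summed level in CPM, counts scaled to a common library total, was 7020 ± 110 in WT, 7366 ± 249 in Hmgn1-/-, 7225 ± 600 in Hmgn2-/- and 7032 ± 384 in Hmgn1-/-Hmgn2-/- libraries (mean ± SD, n = 3). CPM values here are TMM-scaled, which corrects the totals for differences in composition.

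Gbp1, Gbp2 and Gbp3 are neighbours on chromosome 3 of GRCm38, all on the + strand, with spans from GENCODE: Gbp3 at chr3:142560026-142573209, Gbp1 at chr3:142594847-142619179 and Gbp2 at chr3:142620602-142638008. Irgm1 (chr11:48861968-48871683, - strand) and Igtp (chr11:58199556-58207591, + strand) lie on chromosome 11. Their promoters are shown because these 5 genes were lower in each knockout, and because interferon-induced transcription factors are known to bind short motifs near such starts. Windows of 300 bases, 250 before and 50 after the start, were taken from RefSeq (GRCm38.p6) and matched 5 of the 6 members, Iigp1 being the other. The transcription starts used for the windows, from RefSeq, lie inside the spans given above for Gbp2, Gbp3 and Irgm1. The RefSeq span of the whole gene begins before the start used for Gbp1 (at 142594816) and for Gbp3 (at 142560016). In capitals are matches on either strand to the core of the interferon-stimulated response element (ISRE), GAAANNGAAA, and of the gamma-activated site (GAS), TTCNNNGAA. Each sequence runs 5′ to 3′ on the strand of its gene, and the row labelled Gbp1 was matched through its RefSeq synonym Gbp2b.
Gbp1, chr3:142594597-142594896, + strand: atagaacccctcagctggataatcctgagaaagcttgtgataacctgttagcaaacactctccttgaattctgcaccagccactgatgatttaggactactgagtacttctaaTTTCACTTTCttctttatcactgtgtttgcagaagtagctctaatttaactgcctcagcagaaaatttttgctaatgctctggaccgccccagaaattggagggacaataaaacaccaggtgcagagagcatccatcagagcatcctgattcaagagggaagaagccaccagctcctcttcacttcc
Gbp2, chr3:142620413-142620712, + strand: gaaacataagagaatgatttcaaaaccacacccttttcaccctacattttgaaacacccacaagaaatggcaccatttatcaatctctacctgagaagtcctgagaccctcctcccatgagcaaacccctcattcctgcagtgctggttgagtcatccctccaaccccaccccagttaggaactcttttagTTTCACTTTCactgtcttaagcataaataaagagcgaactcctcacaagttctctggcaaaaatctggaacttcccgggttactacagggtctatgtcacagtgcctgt
Gbp3, chr3:142559794-142560093, + strand: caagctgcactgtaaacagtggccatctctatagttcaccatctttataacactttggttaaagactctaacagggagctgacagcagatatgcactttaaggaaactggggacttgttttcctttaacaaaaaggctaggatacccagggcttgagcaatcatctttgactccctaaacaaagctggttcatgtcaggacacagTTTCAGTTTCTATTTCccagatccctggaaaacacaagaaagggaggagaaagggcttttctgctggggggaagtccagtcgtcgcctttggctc
Irgm1, chr11:48871371-48871670, - strand: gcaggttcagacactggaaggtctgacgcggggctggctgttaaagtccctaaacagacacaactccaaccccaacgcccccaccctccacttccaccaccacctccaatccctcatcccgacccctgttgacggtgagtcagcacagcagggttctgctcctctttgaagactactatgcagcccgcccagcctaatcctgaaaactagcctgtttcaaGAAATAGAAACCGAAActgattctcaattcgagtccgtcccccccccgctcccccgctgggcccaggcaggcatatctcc
Igtp, chr11:58199306-58199605, + strand: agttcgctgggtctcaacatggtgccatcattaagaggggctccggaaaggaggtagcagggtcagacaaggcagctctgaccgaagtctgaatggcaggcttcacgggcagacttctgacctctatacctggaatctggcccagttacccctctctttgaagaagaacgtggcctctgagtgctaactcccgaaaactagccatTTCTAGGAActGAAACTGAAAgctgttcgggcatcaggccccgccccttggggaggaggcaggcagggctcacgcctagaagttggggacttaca

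The ISRE core occurred in 5 of these 5 genes and in 3.89% of all 17692 genes with such a window. The GAS core occurred in 1 of the 5, Igtp, and in 9.07% of all these genes. In Gbp3 and in Irgm1 the capitals hold a pair of ISRE matches that overlap each other, and in Igtp the GAS match precedes the ISRE match without overlap. A second annotated start of Gbp3 held neither core. Among the lists of related genes used below, the ISRE core occurred in 8 of 12 other GTPases, 2 of 13 interferon gamma signalling genes, 2 of 13 interferon gamma targets, 5 of 14 type I interferon signalling genes, 9 of 18 type I interferon targets and 0 of 8 genes of LC3 conjugation. The GAS core occurred in 7, 4, 2, 3, 7 and 2 genes of these lists in the same order. A match is a description of the letters, not a site or a cause, and no match says only that these letters are absent from the window.

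**Figure D1:**
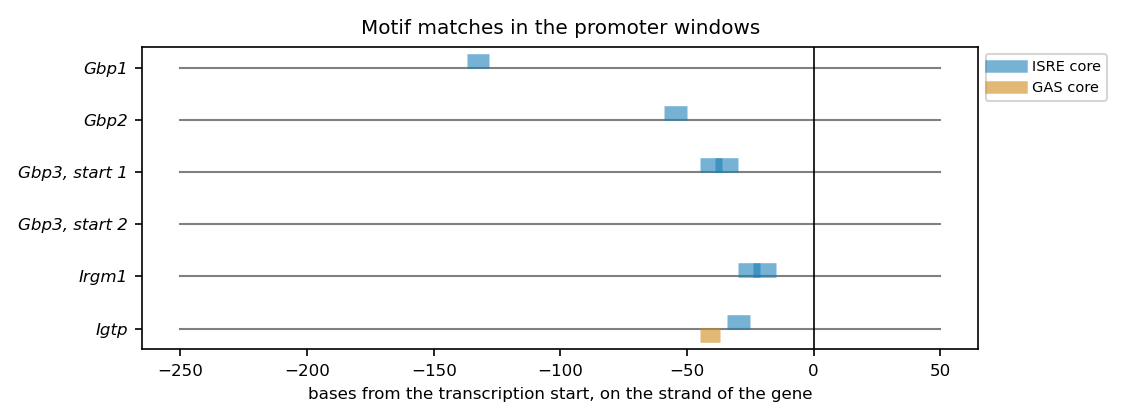
Matches to the ISRE core (blue) and GAS core (orange) in each promoter window, by distance in bases from the RefSeq transcription start used for that window. The ISRE match of Gbp1 lies farthest from the start, at -137 to -128, and those of the other members lie between -59 and -15.

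The first question was whether loss of either protein goes with a change of these genes. Differences were tested over all genes with edgeR, and p was adjusted by the Benjamini-Hochberg method. A gene was past the threshold where the adjusted p was under 0.01 and the log2 fold change (log2 FC) was 1 or more in either direction. In all 3 knockouts the 5 members with more than a few counts were lower than in WT mESCs. Gbp2 kept 7.48%, 4.40% and 4.90% of its mean WT level in Hmgn1-/-, Hmgn2-/- and Hmgn1-/-Hmgn2-/- mESCs, and Igtp, which moved least, kept 44.5%, 52.3% and 42.7%. The 3 comparisons share the WT libraries and are therefore given side by side. In such bulk RNA, fewer expressing cells and less RNA per cell cannot be told apart.

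Gbp2 encodes a guanylate-binding protein that coats vacuoles of pathogens. It had 317, 206 and 397 counts in WT libraries, 21, 18 and 21 in Hmgn1-/-, 18, 10 and 8 in Hmgn2-/-, and 27, 8 and 13 in Hmgn1-/-Hmgn2-/-. All 9 knockout libraries lay below all WT libraries with a wide gap. Its level was 11.7 ± 1.93 CPM in WT, 0.877 ± 0.0805 in Hmgn1-/-, 0.516 ± 0.161 in Hmgn2-/- and 0.574 ± 0.261 in Hmgn1-/-Hmgn2-/- mESCs (mean ± SD, n = 3). The log2 FC of Gbp2 was -3.74 (SE 0.19, adjusted p = 1.99e-08) in Hmgn1-/-, -4.48 (SE 0.24, adjusted p = 1.83e-06) in Hmgn2-/- and -4.29 (SE 0.24, adjusted p = 2.40e-08) in Hmgn1-/-Hmgn2-/- mESCs.

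Gbp1, its neighbour and close relative, had 100, 61 and 142 counts in WT libraries, 8, 9 and 10 in Hmgn1-/-, 5, 11 and 3 in Hmgn2-/-, and 3, 2 and 7 in Hmgn1-/-Hmgn2-/-. Again no knockout library reached a WT library. The log2 FC of Gbp1 was -3.27 (SE 0.30, adjusted p = 3.06e-06) in Hmgn1-/-, -3.79 (SE 0.35, adjusted p = 4.20e-05) in Hmgn2-/- and -4.63 (SE 0.38, adjusted p = 9.72e-07) in Hmgn1-/-Hmgn2-/- mESCs, the last being -5.29 without replicate 3 of that group, which held 7 of its 12 counts. Gbp3 had 38, 26 and 34 counts in WT libraries, 1, 0 and 5 in Hmgn1-/-, 2, 3 and 1 in Hmgn2-/-, and 1, 1 and 0 in Hmgn1-/-Hmgn2-/-. Gbp3 was therefore near the limit of detection in every knockout. In Hmgn1-/- mESCs its log2 FC was -3.78 (SE 0.56, adjusted p = 0.000202), and -5.60 without Hmgn1-/- replicate 3, which held 5 of the group's 6 counts. From the pooled counts, WT exceeded Hmgn1-/- mESCs 14.2-fold (95% exact binomial interval 6.32 to 39.8), Hmgn2-/- mESCs 14.4-fold (6.36 to 40.1) and Hmgn1-/-Hmgn2-/- mESCs 49.5-fold (13.3 to 414) for Gbp3. The fitted log2 FC of Gbp3, -3.79 (adjusted p = 0.000125) in Hmgn2-/- and -5.41 (adjusted p = 8.52e-06) in Hmgn1-/-Hmgn2-/- mESCs, depends at such counts on the prior count, as does that in Hmgn1-/- mESCs. These intervals cover counting error only.

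Irgm1 encodes a regulatory immunity-related GTPase that sits on membranes of the cell itself and holds other family members inactive there. It had 186, 172 and 295 counts in WT libraries, 25, 23 and 26 in Hmgn1-/-, 18, 28 and 24 in Hmgn2-/-, and 21, 27 and 19 in Hmgn1-/-Hmgn2-/-. The knockout libraries lay close together and far below WT. The log2 FC of Irgm1 was -2.97 (SE 0.25, adjusted p = 1.32e-06) in Hmgn1-/-, -3.04 (SE 0.29, adjusted p = 5.37e-05) in Hmgn2-/- and -3.32 (SE 0.27, adjusted p = 1.11e-06) in Hmgn1-/-Hmgn2-/- mESCs.

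Igtp encodes another regulatory member, also called Irgm3. It had 92, 41 and 66 counts in WT libraries, 31, 32 and 13 in Hmgn1-/-, 28, 43 and 20 in Hmgn2-/-, and 26, 20 and 38 in Hmgn1-/-Hmgn2-/-. After scaling, every knockout library was below every WT library, though by less than for the other members: the WT libraries ran from 2.28 to 2.87 CPM and the highest knockout library stood at 1.63. The log2 FC of Igtp was -1.18 (SE 0.29, adjusted p = 0.00803) in Hmgn1-/-, -0.93 (SE 0.24, adjusted p = 0.0210) in Hmgn2-/- and -1.24 (SE 0.26, adjusted p = 0.00275) in Hmgn1-/-Hmgn2-/- mESCs. The Hmgn2-/- value missed the threshold, with a 95% interval from -1.47 to -0.39. The call in Hmgn1-/- mESCs was lost without WT replicate 1, 2 or 3 or Hmgn1-/- replicate 1 or 3, where adjusted p ran from 0.0116 to 0.0319 and log2 FC from -1.25 to -0.90; over all alternatives adjusted p ran from 0.000981 to 0.0319. In Hmgn1-/-Hmgn2-/- mESCs it was lost without replicate 1 (log2 FC -1.07, adjusted p = 0.0194) or replicate 2 (-1.15, adjusted p = 0.0151) of that group, with a range over all alternatives from 0.000384 to 0.0194.

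Iigp1, an effector of the family that is recruited to vacuoles of parasites, had 0, 1 and 2 counts in WT libraries and 0 in all 9 knockout libraries. A difference was not detectable at this depth, and it was not tested.

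**Figure D2:**
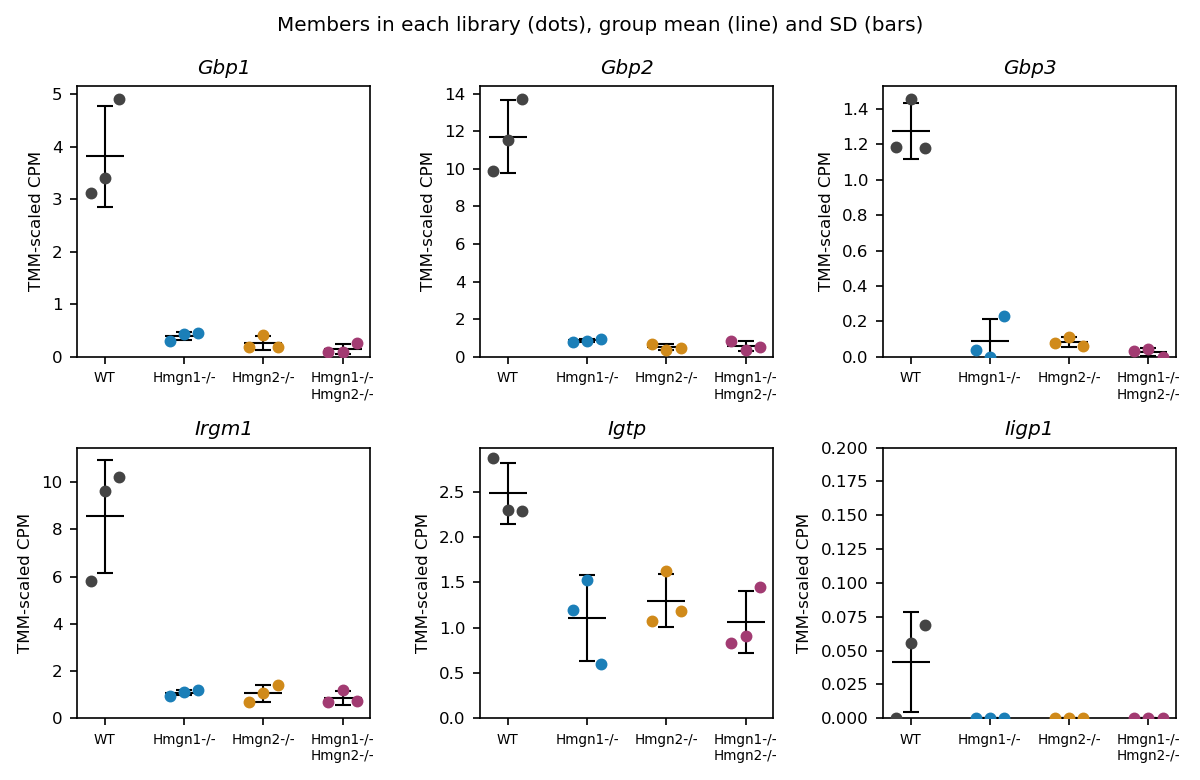
Level of each member in TMM-scaled CPM (vertical axes) in every library (dots) of the 4 genotypes, with the group mean (line) and SD (bars, shown from 0). For Gbp1, Gbp2, Gbp3, Irgm1 and Igtp the 3 WT libraries lie above all 9 knockout libraries.

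With these values, 5 of the 5 tested members had fallen past the threshold in Hmgn1-/- mESCs, where 5.08% of 13917 tested genes fell and 0.898% rose. In Hmgn2-/- mESCs 4 of 5 had, with 4.38% of 14047 genes falling and 0.776% rising. In Hmgn1-/-Hmgn2-/- mESCs it was 5 of 5, with 5.00% of 14128 genes falling and 1.30% rising. Every knockout library was below every WT library for these 5 genes in each comparison, as for 20.5%, 18.7% and 20.8% of all tested genes in the same order. Gbp3 in every knockout and Gbp1 in Hmgn1-/-Hmgn2-/- mESCs had 0 libraries over the limit of the filter on low counts. They were tested through WT libraries alone and so had to be lower elsewhere, hence these counts are a description. The median log2 FC of the tested members was -3.27 in Hmgn1-/-, -3.79 in Hmgn2-/- and -4.29 in Hmgn1-/-Hmgn2-/- mESCs, or -2.97, -3.04 and -3.74 with Gbp3 at the near end of its counting interval. The medians over all tested genes were 0.0040, 0.0133 and 0.0037.

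Levels of different genes were compared per kilobase (kb) of exon. In WT mESCs Gbp2 was highest with 4.66 ± 0.766 CPM per kb (mean ± SD, n = 3), a level that 30.1% of 23054 genes exceeded. Irgm1 (1.47 ± 0.411), Gbp1 (1.35 ± 0.341) and Igtp (1.23 ± 0.167 CPM per kb) followed and did not differ beyond their spread. Gbp3 (0.390 ± 0.0484 CPM per kb) and Iigp1 (0.00717 ± 0.00631) came last. In the knockouts the order was another, with Igtp first at 0.547 ± 0.233 CPM per kb in Hmgn1-/-, 0.642 ± 0.144 in Hmgn2-/- and 0.525 ± 0.167 in Hmgn1-/-Hmgn2-/- mESCs. Gbp2 came next with 0.349 ± 0.0320, 0.205 ± 0.0640 and 0.228 ± 0.104 CPM per kb, but its libraries overlapped those of Igtp in Hmgn1-/- mESCs and those of Irgm1 in Hmgn2-/- and Hmgn1-/-Hmgn2-/- mESCs. The counting program is not stated, and related genes can share reads: of the 50-base stretches of Igtp exons 11.8% also occur in Irgm2, whose annotated exons overlap those of Igtp, and of Gbp3 stretches 3.75% occur in Gbp7. Gbp1 and Gbp2 share 1.84% and 2.03% of their stretches with each other.

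The second question was whether the 3 knockouts differ from each other. Gbp2, Irgm1 and Igtp passed the filter in these comparisons, and Gbp1, Gbp3 and Iigp1 were not tested. After scaling, all Hmgn1-/-Hmgn2-/- libraries were below all Hmgn1-/- libraries for Gbp1 and below all Hmgn2-/- libraries for Gbp3, both at few counts. The share of all genes separated in this way was not computed between knockouts, so this is a description only. By edgeR, 0 of 3 members were past the threshold in Hmgn2-/- against Hmgn1-/- (background 0.176% of 13648 genes), in Hmgn1-/-Hmgn2-/- against Hmgn1-/- (0.511% of 13710) and in Hmgn1-/-Hmgn2-/- against Hmgn2-/- mESCs (0.0434% of 13816). At an unadjusted p under 0.05 there were 1, 0 and 0 members, against 437 of 13648, 1306 of 13710 and 613 of 13816 genes. DESeq2 called 0, 0 and 0 members.

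That 1 gene was Gbp2, with a log2 FC of -0.74 (95% interval -1.47 to -0.019, adjusted p = 1.00) in Hmgn2-/- against Hmgn1-/- mESCs and all Hmgn2-/- libraries below all Hmgn1-/- libraries. For Irgm1 that interval was -0.75 to 0.61 and for Igtp -0.51 to 1.00. In Hmgn1-/-Hmgn2-/- against Hmgn1-/- mESCs the intervals were -1.32 to 0.21 for Gbp2, -1.003 to 0.33 for Irgm1 and -0.81 to 0.68 for Igtp. Against Hmgn2-/- mESCs they were -0.74 to 1.12 for Gbp2, -1.06 to 0.52 for Irgm1 and -0.97 to 0.37 for Igtp. The groups of libraries overlapped in these 8 cases. The separation of Gbp2 in Hmgn2-/- against Hmgn1-/- mESCs is likewise given without the share of all genes so separated, which was not computed. The intervals reach down to -1.47 and up to 1.12, so differences within these limits were not resolved at this depth.

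The third question was whether losing both proteins adds up. If the changes of the single knockouts added on the log2 scale, Gbp2 would change by -8.22 in Hmgn1-/-Hmgn2-/- mESCs, and the measured change was -4.29. Irgm1 would change by -6.02, against a measured -3.32. The departure from additivity, tested in a fit of all 12 libraries, was 3.94 (95% interval 3.00 to 4.88, adjusted p = 3.45e-05) for Gbp2 and 2.71 (1.74 to 3.69, adjusted p = 0.00106) for Irgm1. A positive value means that loss of Hmgn1 went with less of a fall, or none, in the Hmgn2-/- than in the WT background. Against Hmgn2-/- mESCs the log2 FC in Hmgn1-/-Hmgn2-/- mESCs was 0.19 for Gbp2 and -0.27 for Irgm1. Hmgn1 RNA itself changed by -2.16 in the WT and by -4.79 in the Hmgn2-/- background. Its departure was -2.63 (adjusted p = 4.25e-10), so its RNA was not lowered alike in both. Gbp2 and Irgm1 were 2 of 5 tested members past the threshold, where 3.48% of 14323 genes were.

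For Gbp1 the departure was 2.44 (0.91 to 3.96, adjusted p = 0.0350), or 1.78 (adjusted p = 0.250) without Hmgn1-/-Hmgn2-/- replicate 3. It was for Igtp 0.88 (-0.060 to 1.81, adjusted p = 0.228), and for Gbp3 2.18 (-1.40 to 5.76, adjusted p = 0.463), or 3.995 without Hmgn1-/- replicate 3 and 1.67 without Hmgn1-/- replicate 2. None of these passed the threshold. Additive changes would leave a mean of 1.04 counts of Gbp2 and 0.762 of Gbp1 per Hmgn1-/-Hmgn2-/- library, against 3.50 of Irgm1 and 15.3 of Igtp. For the guanylate-binding proteins that is under the floor of 3 counts used here.

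**Figure D3:**
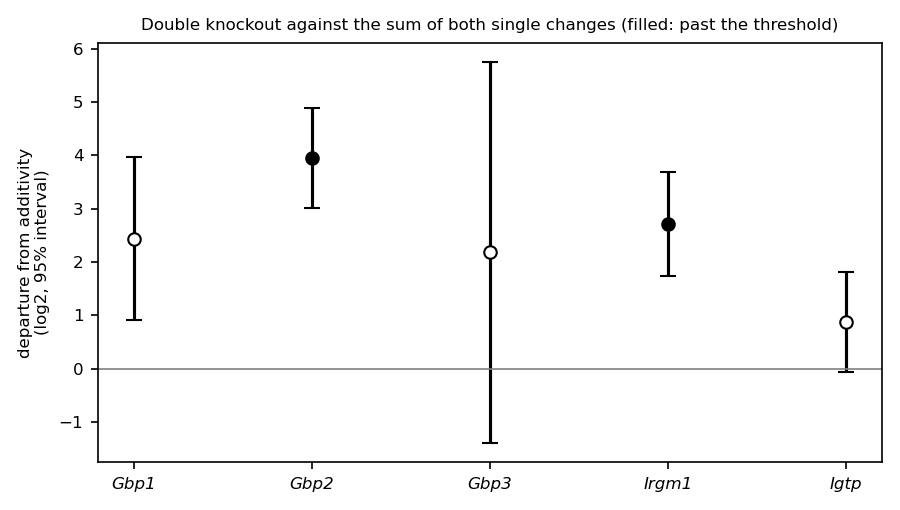
Departure from additivity on the log2 scale (vertical axis) for each tested member, with its 95% interval (bars); filled points are past the threshold. Gbp2 at 3.94 and Irgm1 at 2.71 are filled, and the intervals of Gbp3 and Igtp cross 0.

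The wider family and the pathway were read from fixed gene lists. Of 28 other interferon-inducible GTPases, 26 were in the tables, and 5, 4 and 4 passed the filter in Hmgn1-/-, Hmgn2-/- and Hmgn1-/-Hmgn2-/- mESCs against WT. Past the threshold were 1, 2 and 2 of them, all falling. Gbp4, another guanylate-binding protein, had 69, 56 and 72 counts in WT libraries, 16, 13 and 17 in Hmgn1-/-, 17, 21 and 11 in Hmgn2-/-, and 10, 14 and 16 in Hmgn1-/-Hmgn2-/-, with no overlap between WT and knockouts. Its log2 FC was -1.93 (SE 0.27, adjusted p = 0.000130), -1.85 (SE 0.26, adjusted p = 0.000679) and -2.33 (SE 0.30, adjusted p = 6.91e-05) in the same order. Irgm2, the third regulatory member and the neighbour of Igtp, had 50, 21 and 46 counts in WT libraries, 18, 24 and 19 in Hmgn1-/-, 17, 16 and 7 in Hmgn2-/-, and 20, 16 and 18 in Hmgn1-/-Hmgn2-/-. All its knockout libraries were below WT after scaling. Its log2 FC was -0.71 (adjusted p = 0.0841), -1.35 (adjusted p = 0.00871) and -1.11 (adjusted p = 0.00845). Both calls of Irgm2 depend on most of the libraries: without Hmgn2-/- replicate 3, 1 gene of the list was past the threshold in Hmgn2-/- mESCs, as without WT replicate 1 or 2 or Hmgn2-/- replicate 1 or 2, and in Hmgn1-/-Hmgn2-/- mESCs 1 was left without WT replicate 1 or 2 or any Hmgn1-/-Hmgn2-/- library. DESeq2 called Irgm2 in neither, and with a block for the replicate number 1 gene of the list was past the threshold in Hmgn2-/- mESCs. Tgtp1 had 21, 21 and 5 counts in WT libraries, 13, 10 and 5 in Hmgn1-/-, 2, 1 and 1 in Hmgn2-/-, and 3, 6 and 4 in Hmgn1-/-Hmgn2-/-. It was tested by edgeR only in Hmgn1-/- mESCs (log2 FC -0.61, adjusted p = 0.462), and DESeq2 called it in Hmgn2-/- mESCs, where WT was 10.3-fold higher by pooled counts (3.78 to 39.5). The medians of the tested genes of this list were -0.61, -0.77 and -0.78. Gbp9 had log2 FC of -0.34, -0.19 and -0.45 and the widely expressed Irgq of -0.18, -0.17 and -0.24, none past the threshold.

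Of 16 interferon gamma signalling genes, 15 were tested. Interferon gamma itself (Ifng) had 0 counts in every library, where a count of 0 allows up to 3. The receptor chain Ifngr1 had log2 FC of 0.18, 0.44 and 0.12 in Hmgn1-/-, Hmgn2-/- and Hmgn1-/-Hmgn2-/- mESCs, and Ifngr2 of 0.20, -0.054 and -0.10. The kinase Jak1 had 0.15, 0.081 and 0.086. For Jak2 they were -0.64 (adjusted p = 0.00496), -0.53 and -0.41. None of these passed the threshold.

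Irf1, an interferon-induced transcription factor that binds the ISRE, had 1214, 621 and 874 counts in WT libraries, 432, 328 and 345 in Hmgn1-/-, 358, 373 and 310 in Hmgn2-/-, and 432, 283 and 313 in Hmgn1-/-Hmgn2-/-. Its level fell in every knockout, with no overlap after scaling. The log2 FC of Irf1 was -1.10 (SE 0.10, adjusted p = 2.35e-06) in Hmgn1-/-, -1.16 (SE 0.14, adjusted p = 0.000185) in Hmgn2-/- and -1.42 (SE 0.10, adjusted p = 3.48e-07) in Hmgn1-/-Hmgn2-/- mESCs. Irf8, a related factor of myeloid cells, had a log2 FC of 1.00 (adjusted p = 0.00680, just under the limit of 1), 1.16 (adjusted p = 0.00232) and 1.07 (adjusted p = 0.00223), and so rose in Hmgn2-/- and Hmgn1-/-Hmgn2-/- mESCs. The list thus had 1, 1 and 1 genes that fell and 0, 1 and 1 that rose by edgeR. At an unadjusted p under 0.05 there were 7, 7 and 5 genes in either direction, and DESeq2 called 2, 2 and 2. Over all tested genes, 5382 of 13917, 4358 of 14047 and 5499 of 14128 had an unadjusted p under 0.05. The list's medians were 0.15, 0.046 and -0.0050.

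**Figure D4:**
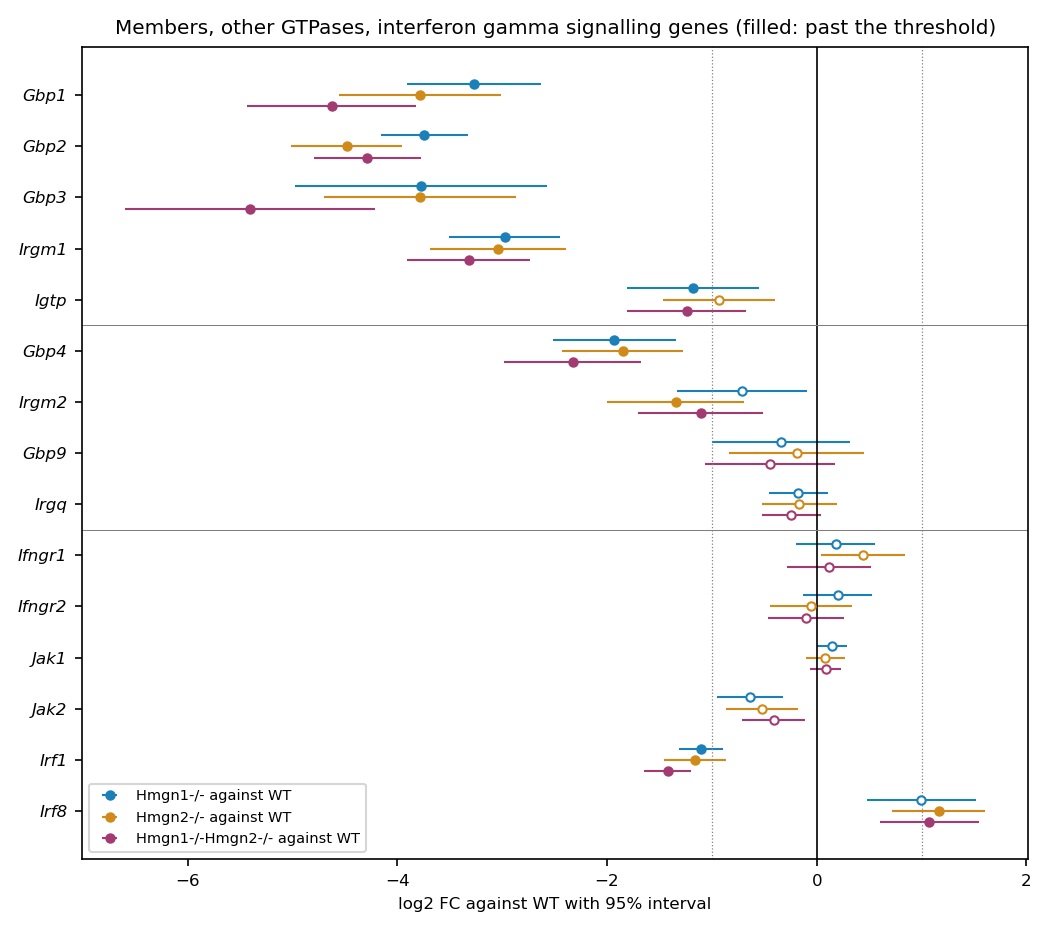
The log2 FC against WT (horizontal axis) of the tested members, 4 other GTPases and 6 interferon gamma signalling genes, for the 3 knockouts, with 95% intervals (bars); filled points are past the threshold and dotted lines mark 1 and -1. Members and Gbp4 lie on the left, Irf1 between -1.42 and -1.10, and Ifngr1, Ifngr2 and Jak1 near 0.

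Of 21 other interferon gamma targets, 15 were tested, and 3, 4 and 2 fell past the threshold in Hmgn1-/-, Hmgn2-/- and Hmgn1-/-Hmgn2-/- mESCs. Psmb8, an immunoproteasome subunit, and Tapbp, which loads peptides on class I molecules, fell in all 3: the log2 FC of Psmb8 was -2.37, -2.81 and -2.56 (adjusted p = 0.000411, 0.00214 and 5.36e-05) and that of Tapbp -1.01, -1.22 and -1.27 (adjusted p = 7.84e-07, 3.60e-05 and 1.59e-07). Psmb8 in Hmgn1-/-Hmgn2-/- mESCs and the chemokine Cxcl10 in both single knockouts had 0 libraries over the limit of the filter, so they had to be lower there. Cxcl10 had 21, 8 and 29 counts in WT libraries, 2, 3 and 5 in Hmgn1-/-, 4, 1 and 1 in Hmgn2-/-, and 3, 11 and 5 in Hmgn1-/-Hmgn2-/-, and DESeq2 called it only in Hmgn2-/- mESCs. The peptide transporter gene Tap2 fell in Hmgn2-/- mESCs (log2 FC -1.23, adjusted p = 0.00543). Its partner Tap1 departed from additivity by 1.33 (adjusted p = 0.000318), with log2 FC of -0.80, -0.55 and -0.025 in the 3 knockouts. The medians of this list were -0.22, -0.42 and -0.22.

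Type I interferon signalling had 9 of 15 genes tested, and edgeR called 0 in each knockout against WT, with 0, 0 and 0 by DESeq2. At an unadjusted p under 0.05 there were 4, 4 and 4, where 5382 of 13917, 4358 of 14047 and 5499 of 14128 genes were. The list's medians were 0.039, 0.0056 and -0.026, and Ifnb1 and Ifna1 had 0 counts in every library. Of 24 type I interferon targets 16 were tested, and 5, 4 and 4 fell and 1, 0 and 0 rose. The antiviral synthetase gene Oas1a fell with a log2 FC of -2.44, -2.37 and -2.20 (adjusted p = 4.85e-07, 0.000102 and 1.67e-06), and Xaf1 with -1.89, -1.98 and -2.16 (adjusted p = 4.55e-05, 0.000683 and 1.29e-05). Zbp1, a sensor of unusual nucleic acids, had 75, 27 and 51 counts in WT libraries, 5, 12 and 12 in Hmgn1-/-, 3, 4 and 3 in Hmgn2-/-, and 1, 2 and 0 in Hmgn1-/-Hmgn2-/-. It was lower in every knockout library than in every WT library. The log2 FC of Zbp1 was -2.15 (adjusted p = 0.000611) in Hmgn1-/- and -3.67 (adjusted p = 8.20e-05) in Hmgn2-/- mESCs. For Zbp1 in Hmgn1-/-Hmgn2-/- mESCs WT was 51.5-fold higher by pooled counts (17.3 to 253), and the fitted -5.49 (adjusted p = 4.78e-06) depends on the prior count. Zbp1 had 0 libraries over the limit of the filter in Hmgn2-/- and Hmgn1-/-Hmgn2-/- mESCs, so it had to be lower there.

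Ifi35 fell in both single knockouts (log2 FC -1.31 and -1.24, adjusted p = 0.00107 and 0.00515), Oas2 in Hmgn1-/- (-1.01, adjusted p = 0.00170) and Oasl2 in Hmgn1-/-Hmgn2-/- mESCs (-1.70, adjusted p = 0.00480). The RNA helicase gene Dhx58 rose in Hmgn1-/- mESCs (1.04, adjusted p = 0.00842), a call that DESeq2 did not make. Oas1a departed from additivity by 2.62 (adjusted p = 0.000391) and Dhx58 by -1.57 (adjusted p = 0.00488). The medians of the list were -0.15, -0.14 and -0.33. The LC3 conjugation system directs immunity-related GTPases to vacuoles. Of its 12 genes 12 were tested, and edgeR called 0 in each knockout against WT, with 0, 0 and 0 by DESeq2. Those at an unadjusted p under 0.05 were 5, 4 and 6, as were 5382 of 13917, 4358 of 14047 and 5499 of 14128 genes. The medians of the LC3 list were 0.021, -0.033 and -0.027.

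The 5 genes on either side of each member give 40 others, of which 24, 23 and 23 were tested. In Hmgn1-/- mESCs edgeR called 0, with 2 at an unadjusted p under 0.05 and 0 by DESeq2. In Hmgn2-/- and Hmgn1-/-Hmgn2-/- mESCs 1 and 1 fell, Irgm2 in both, with 2 and 5 at an unadjusted p under 0.05 and 1 and 0 by DESeq2, the 1 being Tgtp1. That unadjusted p was reached by 5382 of 13917, 4358 of 14047 and 5499 of 14128 tested genes in the 3 knockouts. Within the chromosome 3 cluster the order is Gbp5, Gbp7, Gbp3, Gbp1, Gbp2 and Ccbl2. Gbp5 had 3 counts or fewer in every library. Gbp7 had 13, 1 and 13 counts in WT libraries and 6 or fewer in each knockout library, so its groups overlap. The flanking genes Pdlim5, Ccbl2, Gtf2b and Pkn2 were tested and not past the threshold in any knockout.

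Markers of other cell types were summed in each library, since such cells are known to express interferon-inducible GTPases. The 10 macrophage markers summed to 22.3, 31.3 and 34.0 CPM in WT libraries, 9.07, 10.7 and 11.5 in Hmgn1-/-, 8.20, 8.93 and 12.2 in Hmgn2-/-, and 7.14, 9.08 and 11.3 in Hmgn1-/-Hmgn2-/-. Cd68 was the most abundant, Emr1 was at 0 everywhere, and Lyz2, Fcgr1 and Aif1 had at most 3 counts in any library. Of 3 tested, 2, 1 and 2 fell, Cd68 in all 3 knockouts (log2 FC -1.60, -1.71 and -1.78) and Itgam in Hmgn1-/- and Hmgn1-/-Hmgn2-/- mESCs (-1.27 and -1.57). The other, Cd14, was not past the threshold, with a log2 FC of 0.72, 0.42 and 0.83 and 29 counts in all WT libraries against 42, 34 and 53. DESeq2 called Cd68 and Itgam in all 3 knockouts, and Csf1r, not tested by edgeR, in Hmgn1-/-Hmgn2-/- mESCs. Csf1r had 38 counts in all WT libraries against 7, 6 and 1. Cd68 made up 25.6 of the mean 29.2 CPM in WT mESCs. The 9 fibroblast markers summed to 21.7, 18.1 and 22.6 CPM in WT libraries, 7.07, 5.92 and 6.80 in Hmgn1-/-, 6.47, 7.27 and 6.96 in Hmgn2-/-, and 6.12, 8.98 and 7.74 in Hmgn1-/-Hmgn2-/-. Thy1 was the most abundant, Lum was at 0 everywhere and Dcn had at most 3 counts. Of the 4, 4 and 5 tested, 3, 3 and 4 fell, among them Col1a1 (-1.79, -1.51 and -1.81), Col1a2 (-2.86, -2.75 and -2.41) and Thy1 (-1.63, -1.62 and -1.32). The other was Twist2 in Hmgn1-/-Hmgn2-/- mESCs, which was tested through WT libraries alone and so had to be lower there.

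The 6 endothelial markers summed to 79.4, 81.8 and 82.2 CPM in WT libraries, 49.6, 52.6 and 51.4 in Hmgn1-/-, 48.8, 54.8 and 53.3 in Hmgn2-/-, and 43.5, 47.1 and 45.6 in Hmgn1-/-Hmgn2-/-. Pecam1 was the most abundant and Emcn was at 0 everywhere. Pecam1 made up 65.2 of the mean 81.2 CPM in WT and 38.5 of 45.4 CPM in Hmgn1-/-Hmgn2-/- mESCs, so the sums mostly follow this gene. It was not past the threshold in any knockout. Of the 4, 4 and 5 tested, 2, 3 and 2 fell, Tek and Vwf in all 3 knockouts and Tie1 in Hmgn2-/- mESCs. Cdh5, past the threshold in Hmgn1-/-Hmgn2-/- mESCs, had 0 WT libraries over the limit of the filter and so had to be higher there. T cell and NK cell markers, 7 of 8 in the tables, summed to 2.62 ± 0.373 CPM in WT, 1.75 ± 0.303 in Hmgn1-/-, 2.03 ± 0.387 in Hmgn2-/- and 2.10 ± 0.167 in Hmgn1-/-Hmgn2-/- libraries (mean ± SD, n = 3). Cd3e was the most abundant, Klrb1c, Gzmb and Ifng were at 0 everywhere, and Cd8a and Nkg7 had at most 3 counts. By edgeR 0 of 1 was past the threshold, with 0, 1 and 0 by DESeq2. There were 0, 0 and 0 at an unadjusted p under 0.05, against 5382 of 13917, 4358 of 14047 and 5499 of 14128 genes.

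The 8 primitive endoderm markers summed to 13.6, 15.8 and 16.5 CPM in WT libraries, 121, 91.6 and 97.9 in Hmgn1-/-, 147, 127 and 90.5 in Hmgn2-/-, and 306, 303 and 284 in Hmgn1-/-Hmgn2-/-. They thus moved opposite to the members, and Cubn was the most abundant in the knockouts and Dab2 in WT mESCs. Of 8 tested, 6, 6 and 8 rose, Cubn by 3.72, 3.88 and 5.38 on the log2 scale. Of the 10 pluripotent stem cell markers edgeR called 0 in each knockout, and DESeq2 0, 0 and 0. An unadjusted p under 0.05 was reached by 5, 5 and 6 of them, and by 5382 of 13917, 4358 of 14047 and 5499 of 14128 genes. At an adjusted p under 0.01 with no fold limit, 1, 1 and 1 of these markers fell and 3, 1 and 2 rose. The numbers over all genes with no fold limit are given with the dependence on processing. Markers departed from additivity too. The departure was positive and past the threshold for 3 of 4 tested fibroblast markers (Col1a1 1.495, Col1a2 3.23 and Thy1 1.94), 1 of 3 macrophage markers (Cd68 1.54) and 1 of 5 endothelial markers (Tek 1.36), and negative for 6 of 8 primitive endoderm markers, among them Cubn (-2.24). The part of these cell types in the fall of the members was not tested.

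**Figure D5:**
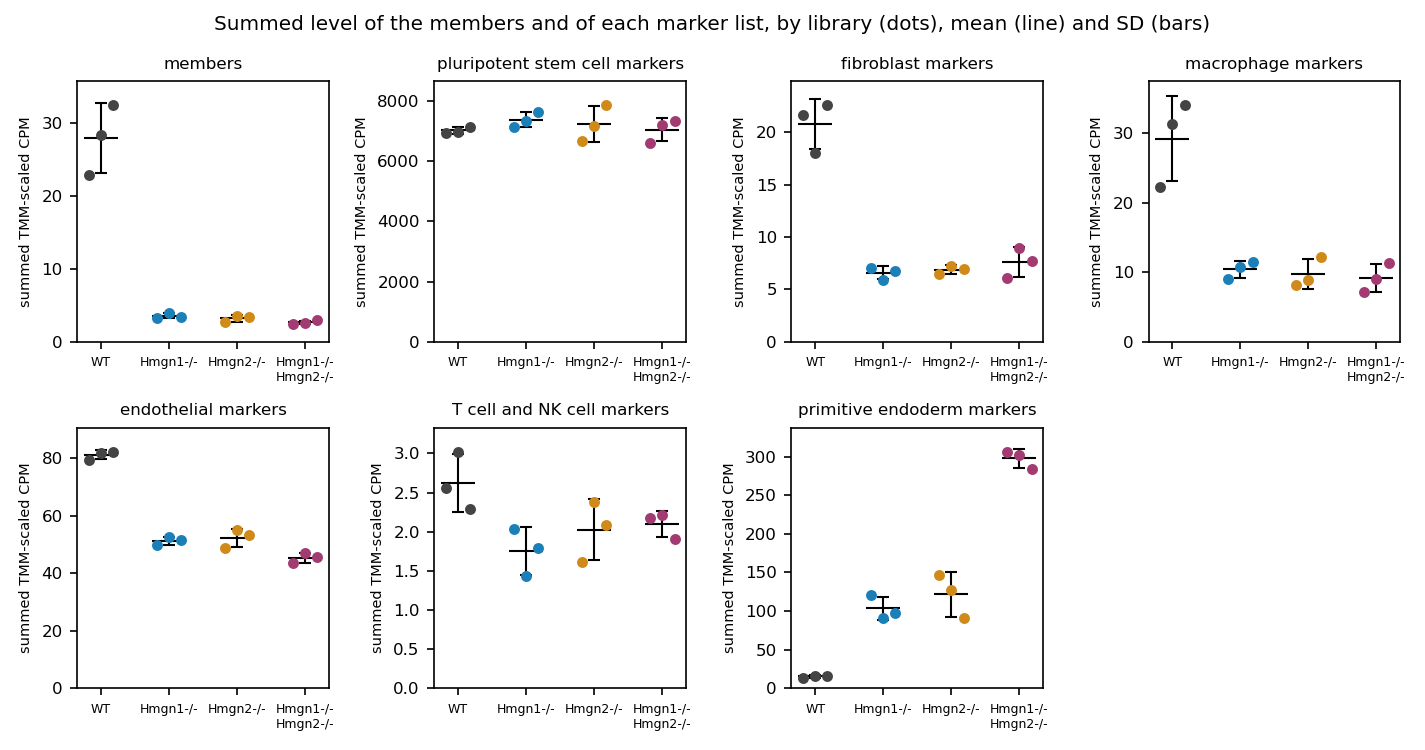
Summed TMM-scaled CPM (vertical axes) of the members and of each marker list in every library (dots) of the 4 genotypes, with mean (line) and SD (bars). Members, macrophage, fibroblast and endothelial markers are highest in WT libraries, primitive endoderm markers are lowest there, and pluripotent stem cell markers overlap.

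The genes most like the members over the 12 libraries were sought among 11553 genes whose mean count reached 50. Likeness was the Pearson r of log2 CPM with the mean standardised profile of the 5 tested members. It was highest for Arl14epl (r = 0.991), Pim2 (0.988), Klk8 (0.988), Tpm1 (0.988) and Ddr1 (0.987), n = 12 libraries that form WT and knockout clusters. Arl14epl had 23.1 ± 3.17 CPM in WT, 2.54 ± 0.281 in Hmgn1-/-, 2.16 ± 0.326 in Hmgn2-/- and 2.09 ± 0.364 in Hmgn1-/-Hmgn2-/- mESCs (mean ± SD, n = 3). Its log2 FC was -3.18, -3.41 and -3.49 (adjusted p = 6.61e-09, 8.63e-07 and 3.17e-09). The kinase gene Pim2 had 175 ± 4.65 CPM in WT, 49.7 ± 5.27 in Hmgn1-/-, 45.3 ± 4.44 in Hmgn2-/- and 41.7 ± 2.86 in Hmgn1-/-Hmgn2-/- mESCs. Klk8, Tpm1 and Ddr1 were likewise lower in all 3 knockouts than in WT mESCs, each past the threshold except Tpm1 in Hmgn2-/- mESCs (log2 FC -0.97).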

How the data were processed

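Counts of 23412 genes in 12 RNA-seq libraries were used as the authors deposited them: raw counts, not normalised, from reads aligned to mm10 with STAR (submitters' processing notes); counting program, annotation and use of strand are not stated. Groups and replicate numbers came from the labels. Replicates differed beyond sampling noise in every pair. Pairs of groups were fitted in R 4.3.3 with edgeR 4.0.16 (TMM, filterByExpr, quasi-likelihood test, Benjamini-Hochberg over all tested genes; threshold as in the report), the additivity contrast in 12 libraries. The steps were tested on simulated data. Exon lengths come from GENCODE vM21 (GRCm38), neighbours and promoters from RefSeq. Alternatives were RLE scaling, DESeq2 1.42.0, no filter, glmTreat, no fold limit, a fit of all libraries, each library left out, and the replicate number as a block. Same-numbered libraries of Hmgn1-/-Hmgn2-/- and WT deviated together (r = 0.167, 0.118 and 0.100), so the data, not the labels, pair them; with the replicate block 5 members were past the threshold, as without it. Genes were named by rule: members, edited genes, list genes past the threshold (at most 6 a list), the top gene and the genes at 0 of each marker list, 5 neighbours on either side, and the 5 most alike. Gbp9, Irgq, Tgtp1, Cd14, Csf1r, Dab2, the signalling genes short of the threshold and the seventh type I target were named outside it. Members and lists were chosen with earlier results of these data known. A gene of the lists is not reported here.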

Additional observations from a re-analysis of the deposited data

Results flagged for a closer look

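For 2 members the change that went with loss of Hmgn1 differed between the Hmgn2-/- and the WT background, by the test of the departure from additivity in all 12 libraries. The departure was 3.94 on the log2 scale for Gbp2 (adjusted p = 3.45e-05) and 2.71 for Irgm1 (adjusted p = 0.00106, edgeR). It stayed past the threshold for both genes with each library left out, with ranges of 3.48 to 4.25 for Gbp2 and 2.42 to 2.94 for Irgm1. At additive changes Gbp2 would have had a mean of 1.04 counts per Hmgn1-/-Hmgn2-/- library and Irgm1 3.50, which limits how far below the single knockouts either could be measured. The measured mean level in Hmgn1-/-Hmgn2-/- mESCs was 0.574 CPM for Gbp2 and 0.872 for Irgm1, against 0.0392 and 0.132 CPM at additive changes. Markers of fibroblasts (3 of 4 tested), macrophages (1 of 3) and endothelium (1 of 5) departed as well with positive values, and primitive endoderm markers (6 of 8) with negative values. Among interferon gamma targets 1 of 15 departed with a positive value. Of 16 type I interferon targets 1 had a positive and 1 a negative departure. Hmgn1 RNA itself departed by -2.63 (adjusted p = 4.25e-10, edgeR). Over all 14323 genes 3.48% were past the threshold.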

How the results depend on the processing

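Against WT, each pair of 1 of the 5 tested members and 1 alternative was counted, leaving out glmTreat and no fold limit. The log2 FC kept its direction in 55 of 55 pairs for each of the 3 knockouts. It ran from -5.60 to -0.90 in Hmgn1-/-, -4.79 to -0.80 in Hmgn2-/- and -5.85 to -1.07 in Hmgn1-/-Hmgn2-/- mESCs. It kept its side of the threshold in 50, 55 and 53 pairs. The other 5 and 2 are the left-out libraries named for Igtp in the report. These pairs include Gbp3 in every knockout and Gbp1 in Hmgn1-/-Hmgn2-/- mESCs. Both were tested there through WT libraries alone and had to be lower, so their kept direction is no test. With glmTreat, which counts only changes shown to exceed the fold limit, 4, 4 and 4 members were called in place of 5, 4 and 5. The departure from additivity kept direction and side in 80 of 80 pairs of member and alternative, and glmTreat called 1 member in place of 2. These pairs include Gbp1 and Gbp3, which had few counts in every knockout. Where WT is high and every knockout is near the floor, the departure has to be positive. For Gbp3, and largely for Gbp1, its kept direction is therefore no test.

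Numbers of genes past the threshold, in the order Hmgn1-/-, Hmgn2-/- and Hmgn1-/-Hmgn2-/- against WT, Hmgn2-/- and Hmgn1-/-Hmgn2-/- against Hmgn1-/-, and additivity, were 832, 724, 890, 24, 70 and 499. With glmTreat they were 234, 172, 223, 7, 13 and 99, and with no fold limit 2412, 1400, 2544, 48, 150 and 905, as these settings are built to do. In Hmgn1-/-Hmgn2-/- against Hmgn2-/- mESCs the 6 genes became 29 with DESeq2, 21 with no filter, 32 with the replicate block, 18 in a fit of all libraries, 1 with glmTreat, and 1 to 12 with a library left out; the cause was not tested. Of other GTPases, glmTreat called 0, 0 and 1 in place of 1, 2 and 2 against WT, and DESeq2 called 1, 2 and 1, with Tgtp1 and not Irgm2 in Hmgn2-/- mESCs. With a library left out, 1 to 2 were called in Hmgn2-/- and 1 to 2 in Hmgn1-/-Hmgn2-/- mESCs.

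With a library left out, 4 log2 FC between knockouts changed sign: Irgm1 (-0.30 to 0.18) and Igtp (-0.044 to 0.52) in Hmgn2-/- against Hmgn1-/-, Igtp (-0.35 to 0.22) in Hmgn1-/-Hmgn2-/- against Hmgn1-/-, and Gbp2 (-0.26 to 0.49) in Hmgn1-/-Hmgn2-/- against Hmgn2-/- mESCs; each interval in the report includes 0.

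In the other pairs of groups, too, the labels give libraries only a shared replicate number, and any pairing comes from the data. Deviations correlated at 0.182, 0.0465 and 0.172 for Hmgn1-/- and WT, 0.0973, 0.131 and 0.0455 for Hmgn2-/- and WT, 0.184, 0.0939 and 0.203 for the single knockouts, 0.149, 0.0169 and 0.192 for Hmgn1-/-Hmgn2-/- and Hmgn1-/-, and 0.301, 0.0434 and 0.238 for Hmgn1-/-Hmgn2-/- and Hmgn2-/-. Each library matched its own number best except replicate 2 in the last 2 pairs. With the replicate block 902, 676, 942, 30, 95 and 582 genes were past the threshold in the order above, 1 other GTPase in place of 2 in Hmgn2-/- mESCs, and the block changed no other call of members or other GTPases. Depth limits what can be said of Gbp1, Gbp3 and Iigp1, with at most 11, 5 and 0 counts in a knockout library.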
